A study of Mus musculus with 8 samples.

Results

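The ligands of the transforming growth factor-β (TGF-β) superfamily and a secreted protein that binds some of them were examined in the hearts of mice 24 hours after myocardial infarction (MI). The 10 genes were Tgfb1, Tgfb2 and Tgfb3, which encode the TGF-β isoforms, Inhba and Inhbb, which encode the activin subunits, Gdf15, a divergent member of the family, Bmp2, Bmp4 and Bmp10, which encode bone morphogenetic proteins (BMP), and Fstl3, which encodes a follistatin-like binding protein. A gene was measured by the probes that the manufacturer designed on its RefSeq transcripts. The arrays held 12 such probes for the 10 genes. For each gene, the brightest probe that the scanner software flagged as well above background in 4 or more mice was used. All 10 genes had one, out of 15156 genes with such a probe. Probes of any kind that passed this flag, with or without a RefSeq gene, numbered 34038.

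The mice were 4 with MI and 4 that were sham-operated, all adult males with the genetic background C57BL\6. The labels list no transgene and no drug treatment. According to the methods, all mice were operated under isoflurane and imaged by FDG-PET, a scan of cardiac glucose uptake, for which mice were given Acipimox, an inhibitor of lipolysis. MI mice underwent permanent occlusion of the anterior interventricular artery through a left thoracotomy, and sham-operated mice, per the design notes of the series, had the same operation without the ligation. The labels give the ventricles as the tissue, and the methods speak of the heart, so the RNA pools infarcted and spared myocardium with every cell type in it. Total RNA of each mouse was hybridised in 1 colour to its own array (Agilent SurePrint G3 Mouse, 8x60K). A single slide carried all 8 arrays, and each of its 2 rows held 2 MI and 2 sham-operated mice. The labels number the mice within each group, and each value below is that of 1 mouse.

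Ligands of this family are made as precursors, are secreted as dimers, and signal through paired type I and type II receptor kinases. TGF-β and activin receptors phosphorylate Smad2 and Smad3, and BMP receptors phosphorylate Smad1, Smad5 and Smad9, after which each set joins Smad4 and enters the nucleus. TGF-β is stored in a latent complex in the matrix and has to be released, activins are held back by follistatin and Fstl3, and BMPs are held back by noggin, chordin and gremlin. In the injured heart the TGF-βs are best known for restraining inflammation and for driving the conversion of fibroblasts into myofibroblasts. Gdf15 is a secreted stress protein that acts on the brain stem receptor Gfral.

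Values are on the log2 scale of the normalized processed signal, so that a difference of 1 is a 2-fold change. They carry the scale and the additive constant that each array has in the normalized values of the authors, which rest on spike-in RNA added before labeling. On this scale the median of all probes was between 7.38 and 7.81 in sham-operated mice and between 7.42 and 8.001 in MI mice, and the median difference between MI and sham over all probes was 0.12, which is the level that the differences below are to be read against. When the arrays were scaled to their 75th percentile instead, this median was -0.02. Sham replicate 2 had the lowest array median and was the lowest sham-operated mouse for 6 of the 10 genes, and MI replicate 3 had the highest array median and was the highest MI mouse for 7 of them. The share of spots well above background ran from 58.6% to 66.4% per array. A single probe's level says nothing of its gene's level relative to other genes, and only differences between mice are compared. In bulk RNA, a change in the number of cells of a type cannot be told apart from a change in the RNA per cell.

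In limma, 7 of the 10 genes passed an adjusted p of 0.05 with higher values after MI, and the log2 fold change of all 10 was positive. They were Gdf15, Inhba, Inhbb, Fstl3, Tgfb2, Bmp2 and Tgfb1. Over all retained probes, 6.3% were called higher and 1.31% lower by the same rule. For 6 of the 7 the change was also over 2-fold, which 3.07% of all probes reached in that direction with an adjusted p under 0.05. In all 7, every MI mouse was above every sham-operated mouse, a pattern that 8.46% of all probes showed, and the exact two-sided permutation p was 0.0286 for each, the smallest that 4 mice against 4 mice allow. The same 7 genes were called when the arrays were scaled to the 75th percentile. Bmp4, Tgfb3 and Bmp10 were not called. In fits of 1 row of the slide at a time, with 2 mice against 2, the 5 genes from Gdf15 to Tgfb2 in this order were called in row 1 and all 7 in row 2. There the log2 fold change of Tgfb1 was 0.87 in row 1 and 1.08 in row 2, and that of Bmp2 was 1.06 and 1.33. The median log2 fold change of the 10 genes was 1.46. The genes were put together with results of these arrays already known, so their count describes them and is not an independent test.

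**Figure D1:**
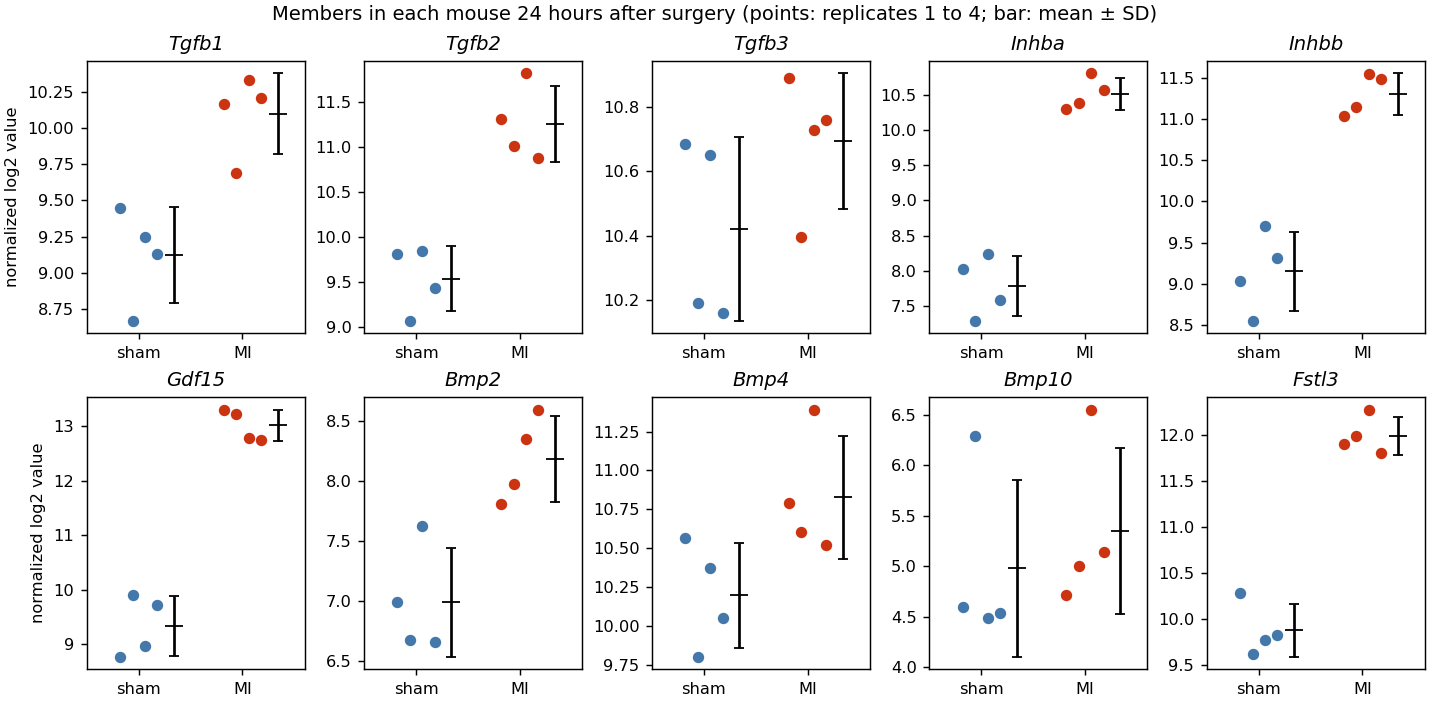
Normalized log2 value (vertical axis, its own range in each panel) of the 10 genes in each of 4 sham-operated mice (blue) and 4 MI mice (red), with the mean and SD of each group in black. The groups do not overlap for Gdf15, Inhba, Inhbb, Fstl3, Tgfb2, Bmp2 and Tgfb1, and they overlap for Bmp4, Tgfb3 and Bmp10.

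For the 4 genes that rose over 4-fold, the 250 bases before a RefSeq transcript start are shown from the RefSeq annotation of build GRCm38.p6, because they show how different the start regions of these genes are. Capitals mark a match to the TATA box letters TATAAA on either strand. The windows were chr8:70632457-70632706 (minus strand) for Gdf15, chr13:16011601-16011850 (plus strand) for Inhba, chr1:119422249-119422498 (minus strand) for Inhbb and chr10:79777024-79777273 (plus strand) for Fstl3. The Inhba window lies inside the annotated gene, which begins upstream of it at position 16004256, and the other windows lie at the 5′ end of theirs. Each sequence reads 5′ to 3′ on the strand of its gene.
Gdf15: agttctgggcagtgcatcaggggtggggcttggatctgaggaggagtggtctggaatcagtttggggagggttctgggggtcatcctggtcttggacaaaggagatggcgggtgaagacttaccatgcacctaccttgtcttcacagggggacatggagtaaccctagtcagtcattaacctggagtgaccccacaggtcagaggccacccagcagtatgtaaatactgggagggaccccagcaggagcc
Inhba: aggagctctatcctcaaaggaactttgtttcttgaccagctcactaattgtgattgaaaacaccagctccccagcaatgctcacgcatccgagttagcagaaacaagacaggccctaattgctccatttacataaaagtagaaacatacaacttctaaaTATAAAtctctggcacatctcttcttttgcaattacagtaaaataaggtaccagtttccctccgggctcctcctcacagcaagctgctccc
Inhbb: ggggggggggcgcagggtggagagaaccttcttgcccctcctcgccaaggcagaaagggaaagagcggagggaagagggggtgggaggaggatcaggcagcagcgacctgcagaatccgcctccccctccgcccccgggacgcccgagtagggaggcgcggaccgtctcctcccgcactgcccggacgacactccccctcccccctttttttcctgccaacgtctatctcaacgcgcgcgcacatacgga
Fstl3: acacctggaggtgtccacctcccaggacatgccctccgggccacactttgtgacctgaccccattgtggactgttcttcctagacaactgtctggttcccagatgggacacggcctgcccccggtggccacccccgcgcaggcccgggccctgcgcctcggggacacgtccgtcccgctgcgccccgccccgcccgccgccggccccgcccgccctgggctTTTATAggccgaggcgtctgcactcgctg
The Inhba window held a TATA box at position -91 from the start, and the Fstl3 window held one at -29, written as TTTATA because it reads TATAAA on the other strand. The Gdf15 and Inhbb windows held none, while 12.4% of 32851 promoter windows of this length held a TATA box. Of the other members with a RefSeq window, Tgfb2 had a TATA box at -31, and Tgfb1, Bmp4 and Bmp10 had none. The Tgfb2 window lies inside the annotated gene, which begins upstream of it at position 186709697. The letters of the AP-1 element (TGANTCA, 6.75% of all windows), the cyclic AMP response element (TGACGTCA, 1.55%) and the C/EBP-ATF composite element (TGATGNAA, 3.45%) were in none of these windows on either strand, the second Gdf15 window included. The Smad box CAGAC, which 42.2% of windows held, was found in the Tgfb2, Gdf15 and Fstl3 windows. The hypoxia response element core ACGTG, which 16.6% of windows held, was found in the Tgfb2, Bmp4 and Fstl3 windows and in the second Gdf15 window. That Gdf15 window is not shown and lies inside the annotated gene. A match of letters is a description of the window and not of a bound site, and the table used here listed no window for Tgfb3 and Bmp2.

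The activin subunits rose together with the binding protein Fstl3. Dimers of the Inhba product form activin A and dimers of the Inhbb product form activin B, and Fstl3 binds activins and keeps them from their receptors. The Inhba probe read 8.03, 7.29, 8.24 and 7.59 in sham replicates 1 to 4 and 10.29, 10.39, 10.80 and 10.57 in MI replicates 1 to 4. The MI mice lay close together and the lowest of them was over 2 log2 units above the highest sham-operated mouse. The means were 7.79 ± 0.43 and 10.51 ± 0.23 (SD, n = 4 each), a log2 fold change of 2.73 (standard error 0.23, 6.62-fold, limma adjusted p = 4.76e-09), and 62 of the 34038 probes had a larger one.

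For Inhbb, the sham-operated mice read 9.04, 8.55, 9.70 and 9.31 and the MI mice 11.03, 11.15, 11.54 and 11.49. All 4 MI mice were above all sham-operated mice, and the spread was wider in the sham group. The log2 fold change of Inhbb was 2.15 (standard error 0.23, 4.45-fold, limma adjusted p = 3.11e-07). Fstl3 read 10.29, 9.62, 9.78 and 9.84 in sham-operated mice and 11.89, 11.98, 12.27 and 11.80 in MI mice. The group means of Fstl3 were 9.88 ± 0.28 and 11.99 ± 0.20, a log2 fold change of 2.11 (standard error 0.21, 4.31-fold, limma adjusted p = 8.53e-08).

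The alpha subunit of inhibin and follistatin itself, named here after their values were seen, did not pass the test. Inha, whose product pairs with an activin subunit to form inhibin, had means of 7.34 ± 0.51 and 7.47 ± 0.33 and a log2 fold change of 0.13 (limma adjusted p = 0.825). Fst, the classical activin antagonist, had means of 5.91 ± 0.45 and 6.62 ± 0.36 and a log2 fold change of 0.71 (limma adjusted p = 0.0741), with overlapping groups.

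In a difference between probes of the same array the scale of the array cancels, but its additive constant does not. In each mouse, the Inhba value minus the Inhbb value lay between -1.73 and -1.01 in sham-operated mice and between -0.92 and -0.74 in MI mice, a difference between the groups of 0.57 (standard error 0.16). This value depended on the additive constants, and in the own fit to the spike-in probes it was 0.15 (standard error 0.12, exact permutation p = 0.257) with overlapping groups, and 0.42 with normexp. The Inhbb value minus the Fstl3 value ranged from -1.25 to -0.08 in sham-operated mice and from -0.86 to -0.31 in MI mice, a difference of 0.05 (standard error 0.30, exact permutation p = 0.886) with a wide error. For Inhba against Fstl3 the difference was 0.62 (standard error 0.20, exact permutation p = 0.0857), and 0.08 in the own spike-in fit. In all, 9 pairs were compared within the TGF-βs, the activin genes with Fstl3, and the BMPs, and the exact p of 0.0286 for Inhba against Inhbb became 0.0643 after adjustment over the 9, so no pair passed.

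**Figure D2:**
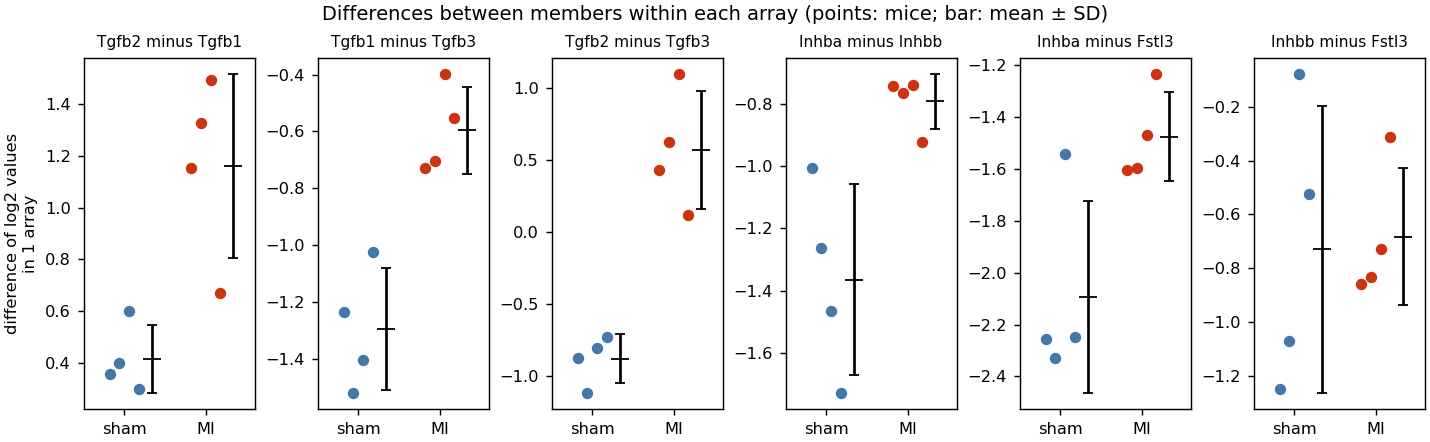
Difference between the log2 values of a pair of genes within each array (vertical axis, its own range in each panel) in 4 sham-operated mice (blue) and 4 MI mice (red), with the mean and SD of each group in black. The groups do not overlap for the 3 pairs of TGF-β isoforms and for Inhba minus Inhbb, and they overlap for the pairs with Fstl3.

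Among the 10 genes, the fold was largest for Gdf15. It read 8.77, 9.89, 8.97 and 9.72 in sham-operated mice and 13.30, 13.23, 12.78 and 12.75 in MI mice. The lowest MI mouse was nearly 3 log2 units above the highest sham-operated mouse. The means were 9.34 ± 0.55 and 13.02 ± 0.29, a log2 fold change of 3.68 with a 95% interval from 3.17 to 4.19 (12.8-fold, limma adjusted p = 7.34e-11), and its probe ranked 21st of 34038 by log2 fold change. The array probe of its receptor gene Gfral was not retained, since it was well above background on fewer than 4 arrays.

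Of the TGF-β isoforms, Tgfb2 and Tgfb1 were called and Tgfb3 was not. Tgfb2, the isoform that needs the co-receptor betaglycan for strong binding, read 9.81, 9.07, 9.85 and 9.43 in sham-operated mice and 11.32, 11.02, 11.82 and 10.88 in MI mice. Every MI mouse was at least 1 log2 unit above every sham-operated mouse, and the log2 fold change of Tgfb2 was 1.72 (standard error 0.24, 3.30-fold, limma adjusted p = 1.21e-05). A dimmer Tgfb2 probe, with means of 7.89 and 9.21, gave 1.32 (limma adjusted p = 0.000229), the same direction and call.

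Tgfb1, the isoform abundant in platelets and leukocytes, was called with a smaller fold. Its probe, printed in 10 spots per array, read 9.45, 8.67, 9.25 and 9.13 in sham-operated mice and 10.16, 9.69, 10.33 and 10.21 in MI mice. The groups did not overlap, but the gap between them was small. The log2 fold change of Tgfb1 was 0.97 with a 95% interval from 0.52 to 1.43 (1.96-fold, limma adjusted p = 0.00482), just under 2-fold. Tgfb3, also printed in 10 spots, read 10.69, 10.19, 10.65 and 10.16 in sham-operated mice and 10.89, 10.40, 10.73 and 10.76 in MI mice. These groups overlapped, and the log2 fold change of Tgfb3 was 0.27 with a 95% interval from -0.16 to 0.71 (limma adjusted p = 0.527, exact permutation p = 0.171).

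Within arrays, Tgfb2 minus Tgfb3 lay between -1.12 and -0.73 in sham-operated mice and between 0.12 and 1.09 in MI mice, a difference of 1.45 (standard error 0.22). Tgfb1 minus Tgfb3 differed by 0.70 (standard error 0.13) and Tgfb2 minus Tgfb1 by 0.75 (standard error 0.19). With the brighter Tgfb2 probe used here, the groups did not overlap in any of these differences, in the own spike-in fit and the other normalizations too. The exact permutation p of 0.0286 of each became 0.0643 after adjustment over the 9 pairs. For the dimmer Tgfb2 probe minus Tgfb1, the groups overlapped. The dimmer probe read 8.94 beside 10.21 for Tgfb1 in MI replicate 4, and 8.23 beside 9.25 in sham replicate 3.

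Of the BMPs, Bmp2 was called. Bmp2, an inducer of bone and of heart cushion tissue, read 6.99, 6.68, 7.63 and 6.66 in sham-operated mice and 7.82, 7.98, 8.36 and 8.60 in MI mice. The highest sham-operated mouse came close to the lowest MI mouse, and the log2 fold change of Bmp2 was 1.20 with a 95% interval from 0.70 to 1.69 (2.29-fold, limma adjusted p = 0.00144). Its signal was low, with a mean intensity of 111 in sham-operated mice beside a median of 195 over the retained probes, and with the large additive constants of an own fit to the spike-in probes its log2 fold change was 0.59 (limma adjusted p = 0.0547). Bmp4 read 10.56, 9.80, 10.37 and 10.05 in sham-operated mice and 10.79, 10.61, 11.39 and 10.52 in MI mice, with an overlap of 1 sham-operated mouse and 1 MI mouse. Its log2 fold change was 0.63 with a 95% interval from 0.15 to 1.11 (limma adjusted p = 0.103, exact permutation p = 0.0571). A second Bmp4 probe was not well above background on any array.

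**Figure D3:**
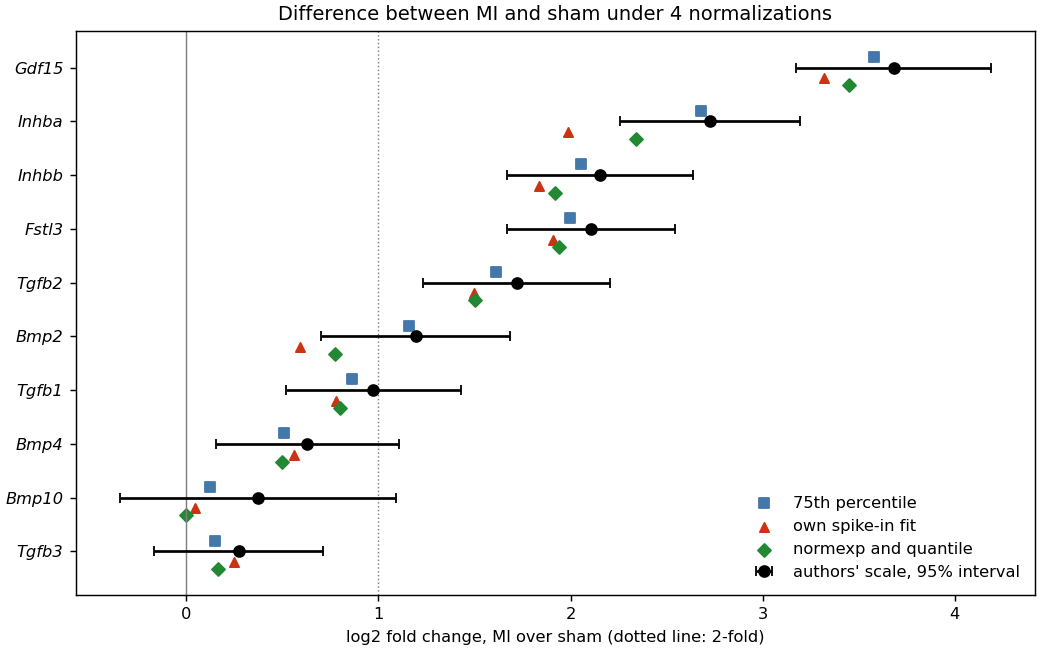
Log2 fold change of MI over sham (horizontal axis) for the 10 genes, ordered by size, with the 95% interval of the limma fit on the scale of the authors (black) and the values under 3 other normalizations (blue squares, red triangles and green diamonds). Gdf15 at 3.68 and Inhba at 2.73 lead the order, and Bmp2 lies at 1.20 on the main scale and at 0.59 in the own spike-in fit.

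Bmp10, a ligand made mainly by atrial cardiomyocytes in the adult, was measured near background. Its probe read 4.60, 6.29, 4.49 and 4.54 in sham-operated mice and 4.71, 5.002, 6.55 and 5.14 in MI mice, and it was not well above background in sham replicate 4 and MI replicate 1. One mouse of each group stood apart from the rest of its group, sham replicate 2 and MI replicate 3. The log2 fold change of Bmp10 was 0.37 with a 95% interval from -0.35 to 1.09 (limma adjusted p = 0.613, exact permutation p = 0.457). Its sign depended on 1 array, since it was -0.03 without MI replicate 3.

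Atrial markers varied widely between mice. The labels name the ventricles as the tissue, while the methods describe homogenizing the excised heart, and how much atrial tissue a sample held is not stated. Myl7, the atrial myosin regulatory light chain, read 12.94, 14.54, 13.27 and 8.52 in sham-operated mice and 14.40, 13.18, 14.14 and 12.96 in MI mice. Myl4, the atrial essential light chain, read 15.22, 16.79, 15.57 and 11.82 in sham-operated mice and 16.72, 15.96, 16.71 and 15.48 in MI mice. Both markers were highest in sham replicate 2, where Bmp10 stood apart, and far lowest in sham replicate 4. In the MI group both were highest in replicate 1, where Bmp10 read 4.71 and was not well above background. Myl4 was nearly as high in MI replicate 3, at 16.71 beside 16.72. Sln, Mybphl and Dkk3 were highest in MI replicate 3, where Bmp10 was highest. They read 14.89, 10.35 and 12.16 there, beside 14.86, 10.20 and 11.48 in MI replicate 1. Bmp10 read 4.54 in sham replicate 4, beside 4.60 and 4.49 in sham replicates 1 and 3. The intensities were 10.4, 13.0 and 13.7 in this order, and the additive constants 9.98, 15.9 and 3.16. The constants make up part of these values, which cannot tell whether Bmp10 was lower in sham replicate 4. Summed over all 5 atrial markers (Myl4, Myl7, Sln, Mybphl and Dkk3), the signal was 4842 in sham replicate 4, between 64887 and 201407 in the other sham-operated mice and between 78786 and 163238 in MI mice, and none of the 5 was called. Ventricular cardiomyocyte markers were high in every array, with a summed signal between 2319620 and 3300590 in sham-operated mice and between 2128030 and 3207760 in MI mice, and none of 7 was called. At an unadjusted p under 0.05, 1 atrial and 0 ventricular markers passed in limma, and the methods' t-test passed 0 and 0. The part of the atrial share of the sample in the Bmp10 values was not tested.

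**Figure D4:**
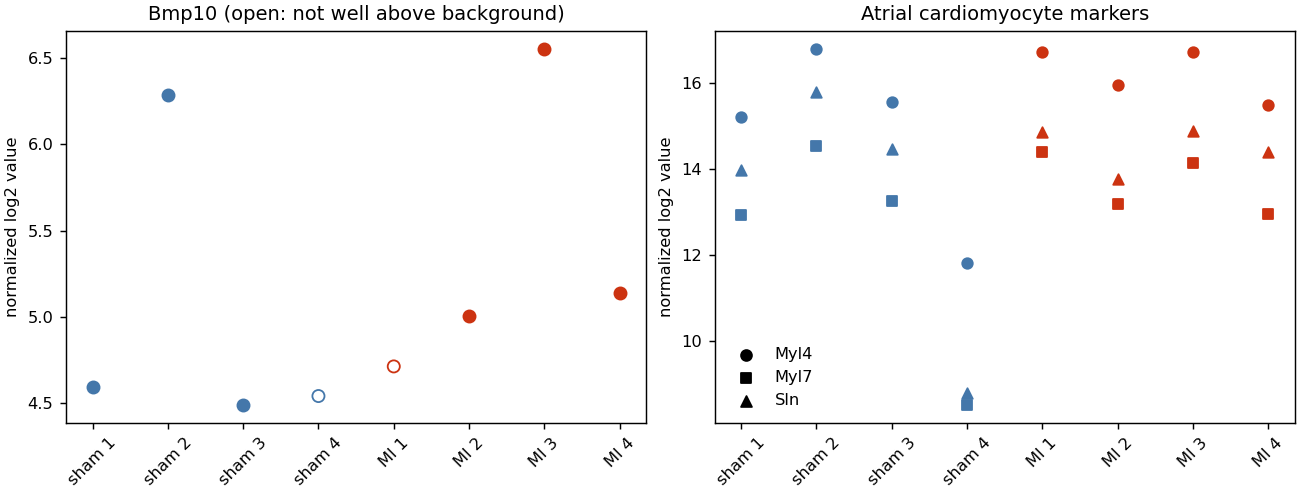
Normalized log2 value of Bmp10 (left; open points were not well above background) and of the atrial markers Myl4, Myl7 and Sln (right) in each of 4 sham-operated mice (blue) and 4 MI mice (red). Bmp10 stands highest in sham replicate 2 and MI replicate 3, and the atrial markers are highest in sham replicate 2 and lowest in sham replicate 4.

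Other genes of the pathway were examined in fixed lists. Of 118 other genes in 7 lists, 100 had a retained probe, and 13 of these were called higher and 2 lower in limma, with a median log2 fold change of 0.16, beside 6.3% higher and 1.31% lower over all probes. With scaling to the 75th percentile the counts were 11 higher and 13 lower, beside 8.7% and 8.84% over all probes, and the median was 0.03, so the direction of the less changed genes depends on the scaling. None of 16 receptor and co-receptor genes was called on the main scale (median 0.16), which include the TGF-β, activin and BMP receptors, and 2 were called lower with scaling to the 75th percentile. At an unadjusted p under 0.05, 5 receptor genes passed in limma, 3 higher and 2 lower, and 0 in the methods' t-test, which called 0 after adjustment.

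Of the other ligands, 1 of 17 was called, Gdf6, a ligand of joint formation, at 0.93 (limma adjusted p = 0.00992) and at 1.85 with scaling to the 75th percentile. It was near background, well above it in 1 sham-operated mouse, its fit had no value for sham replicate 3, and the call was lost without sham replicate 4 (limma adjusted p = 0.0887). Among 16 Smad proteins and regulators, the corepressor Tgif1 rose by 1.04 (limma adjusted p = 0.00295) and the ubiquitin ligase Smurf1 by 0.93 (limma adjusted p = 0.0285). The Smurf1 call was lost without MI replicate 1 (adjusted p = 0.0924), without MI replicate 3 (0.1003), without sham replicate 2 (0.0783) and without sham replicate 3 (0.0555) in limma.

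Among 16 genes of latency and activation, 1 was called, Thbs1. Thrombospondin 1, its product, releases TGF-β from its latent complex and is stored in platelets. Thbs1 read 10.30, 9.84, 11.39 and 10.22 in sham-operated mice and 11.44, 12.66, 12.33 and 12.76 in MI mice. The lowest MI mouse was only just above the highest sham-operated mouse, and the log2 fold change was 1.86 (standard error 0.29, limma adjusted p = 7.96e-05). Among 11 secreted antagonists, 1 was called, Chrdl2, a chordin-like BMP antagonist, at 1.77 (limma adjusted p = 0.0435). Chrdl2 read between 4.64 and 5.19 in sham-operated mice and 5.84, 5.31, 9.82 and 6.01 in MI mice, so most of its change came from MI replicate 3, and leaving it out gave 0.74 (limma adjusted p = 0.0644). Its limma adjusted p was 0.0656 without sham replicate 3 and 0.176 with scaling to the 75th percentile.

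Of 15 targets of TGF-β and activin, 6 were called higher, with a median log2 fold change of 0.53. Snai1 read 8.05, 7.39, 7.96 and 7.81 in sham-operated mice and 9.48, 9.17, 9.86 and 9.53 in MI mice, without overlap. The transcription factor Snai1 rose by 1.71, smooth muscle actin Acta2 by 1.46, the metalloproteinase inhibitor Timp1 by 1.31, the matricellular protein gene Ccn2 by 0.94 and the matrix protein gene Tgfbi by 0.85, with limma adjusted p between 3.93e-06 and 0.0187. The groups overlapped for Ccn2. With scaling to the 75th percentile Ccn2 was not called (limma adjusted p = 0.0734), and it was lost without MI replicate 3 (0.0626). The Tgfbi call was lost without MI replicate 4 (0.0663), without sham replicate 2 (0.0653) and without sham replicate 4 (0.0718) in limma. Not all targets rose, and 11 of the 15 had a positive change. The change was negative for the collagen genes Col1a1 (-0.57), Col1a2 (-0.44) and Col3a1 (-0.75) and for Snai2 (-0.44). In limma none of these was called, with adjusted p between 0.127 and 0.388. When the arrays were scaled to the 75th percentile, 5 targets were called higher and 1 lower.

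Of 9 BMP targets, 2 were called higher and 2 lower. Id2, which encodes an inhibitor of basic helix-loop-helix factors, rose by 1.03 (limma adjusted p = 0.00156), while its relative Id1 fell by 0.92 (limma adjusted p = 0.0121) and the Notch and BMP target Hey1 fell by 1.02 (limma adjusted p = 0.0213). The groups overlapped for Hey1. Id1 read 13.53, 13.38, 13.80 and 13.75 in sham-operated mice and 12.30, 12.90, 12.30 and 13.29 in MI mice, without overlap. The Id1 call was lost without MI replicate 1 (limma adjusted p = 0.0593), and the Hey1 call without MI replicate 2 (0.0926) and without sham replicate 3 (0.0997). Hamp, which encodes the iron hormone hepcidin, had a log2 fold change of 2.62 (limma adjusted p = 0.00581) with overlapping groups. It read 8.82, 10.86, 7.87 and 6.41 in sham-operated mice and 10.72, 9.43, 12.95 and 11.34 in MI mice. The values varied with the mice included, from 1.93 without sham replicate 4 to 3.41 without sham replicate 2, and from 0.23 in row 1 of the slide to 5.01 in row 2. Like the atrial markers, Hamp was highest of the sham group in replicate 2 and lowest in replicate 4. In the MI group Hamp was highest in replicate 3 and lowest in replicate 2. The summed atrial signal was 163238 in replicate 1, close to 161513 in replicate 3, and lowest in replicate 4 (78786). The single atrial markers differed in order. Sln, Mybphl and Dkk3, like Hamp, were highest in replicate 3 and lowest in replicate 2. Myl4 and Myl7 were highest in replicate 1 and lowest in replicate 4. The part of the atrial share in the Hamp values was not tested. With scaling to the 75th percentile the adjusted p of Hamp in limma was 0.110.

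**Figure D5:**
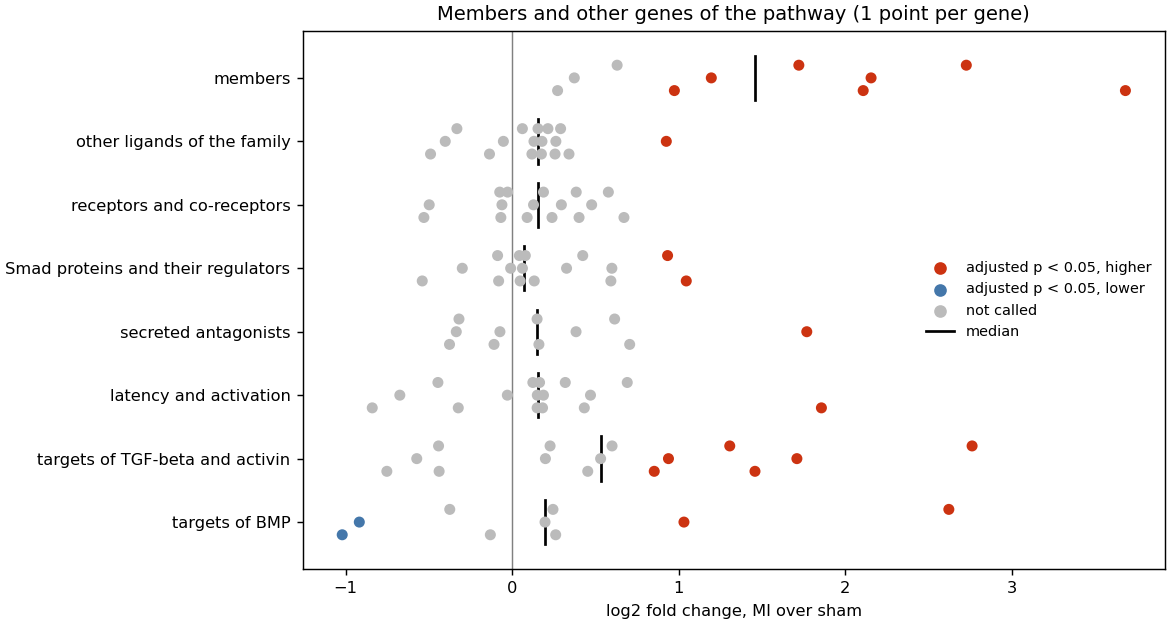
Log2 fold change of MI over sham (horizontal axis), 1 point per gene with a retained probe, for the 10 genes (top row, members) and the other genes of the pathway in 7 lists. Red and blue points were called higher and lower, grey points were not called, and the black bar is the median, which is 1.46 in the top row, 0.53 for targets of TGF-β and activin and between 0.07 and 0.20 for the other lists.

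Some markers of blood cells and smooth muscle also differed between the groups. Of 6 neutrophil markers, 5 were called higher in MI mice, with a median log2 fold change of 2.92 over the 6, and their summed signal was between 61369 and 80246 in sham-operated mice and between 203717 and 315675 in MI mice. The leukocyte marker Ptprc rose from 7.05 ± 0.20 to 8.14 ± 0.26, a log2 fold change of 1.098 (limma adjusted p = 0.000906). Of 5 platelet markers, 2 were called higher, Ppbp at 1.08 and Itga2b at 0.94, the latter with overlapping groups. With scaling to the 75th percentile Itga2b was not called (limma adjusted p = 0.114), and the methods' t-test called neither (adjusted p = 0.109 and 0.354). The summed signal of the 5 platelet markers was between 15662 and 17847 in sham-operated mice and between 19585 and 30629 in MI mice. Most of this sum was Pf4, the brightest of them, which was not called (log2 fold change 0.53, limma adjusted p = 0.131). Of 5 monocyte and macrophage markers, Cd14 at 2.25 and Ccr2 at 1.15 were called, while Lyz2 at 0.15, Csf1r at -0.16 and Adgre1 at -0.24 were not. The median of these 5 was 0.15, with summed signals that overlapped, between 11082 and 17328 in sham-operated mice and between 15229 and 21484 in MI mice. The methods' t-test called Cd14 (adjusted p = 0.0480) and not Ccr2 (adjusted p = 0.0797). Of 4 smooth muscle markers, Acta2 alone was called, and their summed signal was between 16160 and 21574 in sham-operated mice and between 24511 and 44292 in MI mice. The rise of this sum lay mainly in Acta2, which also stands in the list of TGF-β targets. Tagln at -0.07, Myh11 at -0.27 and Cnn1 at 0.54 were not called. The part of these cells in the changes of the ligands, of Thbs1 and of the TGF-β targets was not tested.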

How the data were processed

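Each deposited intensity is, per the file headers, a processed signal from Feature Extraction 11.0.1.1 with the local background subtracted. The authors dropped spots that were not well above background, used spike-in probes to normalize the arrays to each other in limma and vsn, and deposited log2 values, from which the scale and additive constant (3.16 to 19.6) of each array were recovered with no misfit above 5.1e-09. These were applied here to the processed intensity of all spots. Spots marked as outliers and control probes were left out, spots of a probe were averaged, and 34038 probes well above background on at least 4 of 8 arrays were retained. Groups came from the labels. MI and sham-operated mice were compared in limma 3.58.1 (R 4.3.3) without covariates, with Benjamini-Hochberg adjustment over all retained probes and a threshold of 0.05. The study itself used significance analysis of microarrays. For single values, the exact two-sided test permuted the mice. Intervals are 95% intervals of the limma fit. The mice are the replicates, and 4 arrays per group limit the precision. The steps were tested on simulated data.

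Symbols and promoter windows came from the RefSeq tables of GRCm38.p6, and motifs were searched on both strands. A gene of a list was measured by the same probe rule, its summed level is the sum of signals over the list, and at most 6 called genes of a pathway list and 3 of a marker list are named. Myl4, Myl7 and Ptprc were named in any case. A called gene of the TGF-β target list is not reported here by name. The members and lists were chosen with earlier results of these data known. The alternatives were an own fit of the vsn model to 234 spike-in spots (constants from 166 to 256), scaling to the 75th percentile, a shift by the spike-ins, quantile normalization, normexp with an offset of 50, the authors' log2 values, no detection filter, detection on all 8 arrays, outlier spots kept, an equal-variance t-test, a replicate block, a block for the row of the slide, the mean over probes and each mouse left out in turn. The t-test carried Benjamini-Hochberg adjustment. It is not the study's own procedure, the permutation-based t-test of significance analysis of microarrays. Fits within each row of the slide, and differences within arrays under other normalizations, were added after seeing the data. Python 3.11.15, pandas 2.3.3, numpy 2.4.6, scipy 1.17.1 and matplotlib 3.10.9 did the rest.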

Additional observations from a re-analysis of the deposited data

Results flagged for a closer look

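Bmp10 was flagged because 1 mouse lay far from its group. In sham replicate 2 the Bmp10 value was 6.29 on the log2 scale, while the other sham-operated mice lay between 4.49 and 4.60, so that the gap took up 0.941 of the range of the group, more than Dixon's 95% critical value for 4 samples. It was the only flag among 20 groups of 4 mice examined, 1 for each of the 10 genes in each group, and chance flags about 1 in 20 groups. Without sham replicate 2 the log2 fold change of Bmp10 was 0.81.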

How the results depend on the processing

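Under 23 alternatives, Gdf15, Inhba, Inhbb, Fstl3 and Tgfb2 kept their direction and their call in every one. The number of the 10 genes called was 7, between 5 and 8 under the alternatives and 7 with any mouse left out. Those over 2-fold numbered 6, and between 5 and 7 under the alternatives. Tgfb1 was not called without the detection filter (adjusted p = 0.0672), with the equal-variance t-test (0.0981) or in row 1 of the slide alone (0.581). Bmp2 was not called in the own vsn fit (0.0547), with the equal-variance t-test (0.117) or in row 1 alone (0.254). These adjusted p values are from limma except for the t-test, which is not the study's own procedure. Bmp10 changed sign with normexp (-0.0029), without MI replicate 3 (-0.0271, and between -0.0271 and 0.81 with any mouse left out) and in row 1 alone (-0.58), and gave no value where detection on all 8 arrays was required.

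Pathway genes called numbered 15, and 7 with the own vsn fit, 24 with the 75th percentile, 8 with the spike-in shift, 26 with quantile normalization, 28 with normexp, 6 without the detection filter, 3 with the equal-variance t-test and 6 in row 1 alone. With 1 mouse left out they numbered between 12 and 18. Probes called numbered 2590, and 1271 with the own vsn fit, 5973 with the 75th percentile, 6173 with quantile normalization, 7057 with normexp, 990 without the filter, 747 with the equal-variance t-test, 523 in row 1 alone and 1380 in row 2 alone, and between 1883 and 3213 with 1 mouse left out. Each row holds only 2 mice per group. The share of called probes that were higher was 82.8%, and 49.6% with the 75th percentile (2963 higher and 3010 lower).

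With the replicate block, 4895 probes were called, and Bmp4 was called too (limma adjusted p = 0.0362). The labels only number the mice within each group, so the main fit did not pair them. The same-number correlations of deviations from the group means were all positive, from 0.0114 to 0.292. Correlations between different numbers ranged from -0.327 to 0.226, and 5 of the 8 mice correlated best with their own number. Arrays of the same number also lay side by side in a row of the slide. These values do not settle whether the numbers pair the mice.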

Other observations

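The remaining marker lists, of cells that a ventricle sample can hold, gave no called gene. The median log2 fold change was -0.31 over 6 fibroblast markers, with a summed signal between 73280 and 123366 in sham-operated mice and between 40865 and 103521 in MI mice. It was 0.33 over 5 endothelial markers, 0.21 over 5 lymphocyte markers and -0.09 over 5 mesothelial markers, and the summed signals of the groups overlapped in each of these lists. At an unadjusted p under 0.05, 5 of these 21 genes passed in limma and 2 in the equal-variance t-test, which called 0 after adjustment. With scaling to the 75th percentile, 1 endothelial marker was called higher.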
